A study of Mus musculus with 8 samples.

Results

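Transcripts of the nuclear genes for the mitochondrial respiratory chain and ATP synthase were followed in primary lung fibroblasts (pFBs) of transgenic mice. All levels below are of RNA, and the proteins of these genes are not part of the data. The genes were taken by symbol from the count table: the Nduf subunits of complex I, Sdha to Sdhd of complex II, the Uqcr genes and Cyc1 of complex III, Cycs (cytochrome c), the Cox4 to Cox8 genes of complex IV and the Atp5 genes of complex V. Assembly factors (Ndufaf genes), Ndufa4l2 and entries ending in -ps were not taken. This gave 88 entries of the 54532 in the table, under 87 symbols, with 37 entries for complex I, 4 for complex II, 9 for complex III, 1 for cytochrome c, 19 for complex IV and 18 for complex V. At least 1 read was counted for 85 of them, and 81 had enough reads to be tested. The symbol rule also took names that are not structural subunits of the complex it files them under. Ndufa4 is a complex IV protein under a complex I name, Cox7a2l is a factor that joins complexes into supercomplexes, Atp5s is coupling factor B, and Cox6c2 is annotated as a processed pseudogene.

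The libraries came from pFBs of female mice on a C57/black background, at passages 3 to 7, grown in medium with 10% fetal bovine serum. The WT group held 4 libraries of wild-type mice. The HOMO group held 4 libraries of mice homozygous for a knock-in, made by CRISPR/Cas9, from which human IGFBP5 is expressed ubiquitously. IGFBP5 is a secreted protein that binds insulin-like growth factors. Ages, the number of mice behind the libraries and the strand setting of the counting are not given in the sources used here. Total counts per library ran from 17236521 to 31987790, of which the 88 entries took 0.697% to 1.07%.

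Some libraries resembled each other far more than others did. WT1 and WT2 differed by a biological coefficient of variation of 7.64%, HOMO1 and HOMO2 by 4.71% and HOMO3 and HOMO4 by 5.07%, against 30.0% to 55.7% for all other pairs within a genotype. These near-identical pairs still differed by more than counting noise, so all 8 libraries were kept, but if the members of a pair come from 1 culture the p-values below are too small. Fibroblast markers were high in every library (summed level of 10 genes 19007 to 32040 CPM, counts in 1000000 of the library), and epithelial and endothelial markers summed to at most 18.9 and 8.08 CPM. Macrophage markers (9 genes) summed to 131, 159, 1957 and 1143 CPM in WT1 to WT4 and to 57.8 to 190.2 CPM in HOMO. Mesothelial markers (5 genes) summed to 51.7 to 155 CPM in WT and 92.1 to 130 CPM in HOMO. The pairs of HOMO libraries differed in 2 other lists. Smooth muscle and pericyte markers (7 genes) summed to 200, 207, 1454 and 1430 CPM in HOMO1 to HOMO4 and to 776 to 2711 CPM in WT. Proliferation markers (10 genes) summed to 285, 279, 1137 and 1027 CPM in HOMO1 to HOMO4 and to 178 to 1624 CPM in WT. Human IGFBP5 was not among the genes counted. Mouse Igfbp5 was counted at 408 CPM in WT3, at 4.33 to 9.64 CPM in the other WT libraries and at 1.07 to 2.85 CPM in HOMO.

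The respiratory chain passes electrons from NADH (through complex I) and from succinate (through complex II) to ubiquinone, then through complex III and cytochrome c to complex IV, which reduces oxygen. Complexes I, III and IV pump protons across the inner mitochondrial membrane, and complex V uses the gradient to make ATP. All complexes but complex II are built from subunits of both the nuclear and the mitochondrial genome, so the nuclear subunits have to be made in step with those of mitochondrial DNA. Many nuclear subunit genes are known targets of the transcription factors NRF-1 and GABP (NRF-2).

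Of the 81 tested genes, 4 were lower in HOMO than in WT and 0 were higher by the threshold used here, an edgeR adjusted p under 0.05 together with an absolute log2 fold change above 0.6. They were Ndufab1 and Ndufb6 of complex I, Uqcrq of complex III, and Cycs. A share of 4.94% of the tested members was thus called, against 12.1% of all 14150 genes tested, and 6.18% of all genes were called lower and 5.94% higher in HOMO. An unadjusted p under 0.05 was reached by 17 of the 81 members, against 32.3% of all genes tested. The nuclear-encoded catalytic and core subunits of complexes I, II, III and V were outside the called set. Complexes II, IV and V had 0 calls in edgeR, with 1, 2 and 1 members at an unadjusted p under 0.05, and DESeq2 called 1 in complex IV. With other tests or samples, 6 members were called in DESeq2 (16.5% of all genes), 6 in limma-voom with sample weights (25.3%), 6 with exon-length offsets (13.3%), 3 without WT3 (15%) and 6 without WT3 and WT4 (20.9%). Of these calls, 2 in limma-voom (Cox6a2 and Atp5s) and 3 without WT3 and WT4 (Uqcrh, Cox6a2 and Atp5s) were higher in HOMO. The others were lower. A fit with the replicate number as a block called 2 (6.69%). With counts of the near-identical libraries summed, leaving 3 WT and 2 HOMO units, no gene was called (0%), the adjusted p of the 4 genes ran from 0.306 to 0.390, and an unadjusted p under 0.05 was reached by 3 members and by 12.8% of all genes.

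Promoters of the called genes are shown because these genes share a direction. RefSeq windows (GRCm38.p6) were matched for Cycs, Ndufab1 and Ndufb6, and Uqcrq had no entry in the table used. Each line gives the 250 bases before the annotated start of transcription, 5′ to 3′ on the strand of the gene, with matches on either strand to the motifs in capitals. The motifs were the NRF-1 core (GCATGCGC), an ETS core as bound by GABP (CCGGAAG), the cyclic AMP response element (TGACGTCA), the CCAAT box and the GC box (GGGCGG), none of which overlapped another in these windows.
Cycs, chr6:50566570-50566819, minus strand: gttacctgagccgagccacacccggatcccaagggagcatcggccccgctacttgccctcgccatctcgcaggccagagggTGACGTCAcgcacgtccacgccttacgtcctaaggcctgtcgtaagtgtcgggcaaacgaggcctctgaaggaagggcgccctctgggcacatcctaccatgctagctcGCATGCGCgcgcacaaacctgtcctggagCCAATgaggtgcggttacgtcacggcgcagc
Ndufab1, chr7:122101849-122102098, minus strand: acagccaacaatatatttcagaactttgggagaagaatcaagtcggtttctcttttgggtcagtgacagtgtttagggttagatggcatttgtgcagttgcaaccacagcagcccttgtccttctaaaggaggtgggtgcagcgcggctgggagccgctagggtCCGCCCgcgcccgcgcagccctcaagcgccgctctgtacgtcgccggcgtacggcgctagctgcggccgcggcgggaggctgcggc
Ndufb6, chr4:40279422-40279671, minus strand: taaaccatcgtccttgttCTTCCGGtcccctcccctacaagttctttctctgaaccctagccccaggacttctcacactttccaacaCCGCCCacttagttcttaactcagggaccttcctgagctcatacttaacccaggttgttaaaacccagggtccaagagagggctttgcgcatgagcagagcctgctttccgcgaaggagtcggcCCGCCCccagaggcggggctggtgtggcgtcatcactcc

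The Cycs window held a cyclic AMP response element that began 169 bases before the start, an NRF-1 core at 60 bases and a CCAAT box at 31 bases. The Ndufab1 window held 1 GC box, at 86 bases. The Ndufb6 window held an ETS core at 232 bases and GC boxes at 163 and 39 bases. No motif was found in all 3 windows. Over the 73 windows matched to 68 of the respiratory chain genes, the NRF-1 core was found in 12.3%, against 2.26% of all 32851 windows of this length. The ETS core was found in 16.4% against 6.91%, the cyclic AMP response element in 6.85% against 1.55%, the CCAAT box in 42.5% against 33.8%, and the GC box in 32.9% against 32.7%. A match of letters does not show that a factor binds there.

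Ndufab1 had the lowest adjusted p of the set. It encodes the mitochondrial acyl carrier protein, which is both a complex I subunit and the carrier of mitochondrial fatty acid synthesis, and lies at chr7:122085403-122101886 (mm10, minus strand). Its level in WT1 to WT4 was 53.4, 57.0, 80.0 and 48.4 CPM, and in HOMO1 to HOMO4 it was 27.4, 26.02, 31.4 and 30.6 CPM. Every HOMO library was below every WT library. The log2 fold change was −1.05 ± 0.18 (SE), or 2.07 times lower in HOMO, with an edgeR adjusted p of 0.00966. This call held when any 1 library was left out. Of the 100-base stretches of its transcripts, 9.497% also occur in a pseudogene or another gene. Chromosome 7 as a whole had a median log2 fold change of −0.29, and Ndufab1 was 0.76 below that on the log2 scale (−0.76).

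Uqcrq, a small subunit of complex III near the cytochrome b core (chr11:53427922-53430831, minus strand), was counted at 101, 103, 203 and 130.1 CPM in WT1 to WT4 and at 50.05, 51.04, 77.25 and 71.42 CPM in HOMO1 to HOMO4. The genotypes did not overlap, and WT3 stood above the other WT libraries. The log2 fold change was −1.10 ± 0.26, or 2.15 times lower, with an edgeR adjusted p of 0.0301. Without WT3 it was −0.84 with an adjusted p of 0.0242. The call was lost when HOMO1, HOMO2 or HOMO4 was left out (adjusted p 0.101, 0.103 and 0.0584).

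Cycs encodes somatic cytochrome c, the electron carrier between complexes III and IV that also starts the caspase cascade when it leaves mitochondria (chr6:50562563-50566538, minus strand). Its level was 92.7, 79.6, 74.3 and 54.2 CPM in WT1 to WT4 and 33.6, 30.7, 47.9 and 44.4 CPM in HOMO1 to HOMO4. The highest HOMO library lay just below the lowest WT library, and HOMO1 and HOMO2 were lower than HOMO3 and HOMO4. The log2 fold change was −0.94 ± 0.21, or 1.92 times lower (edgeR adjusted p 0.0243), and it was −0.95 without WT3. The call was lost when WT2, HOMO1, HOMO2 or HOMO4 was left out, with adjusted p between 0.0535 and 0.0894. Of the 100-base stretches of its transcripts, 24.7% also occur in transcripts of other annotated genes, so the count depends in part on how shared reads were treated.

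Ndufb6, an accessory subunit in the membrane arm of complex I (chr4:40270591-40279421, minus strand), was counted at 29.4, 31.2, 44.1 and 32.9 CPM in WT1 to WT4 and at 20.5, 20.4, 22.0 and 25.3 CPM in HOMO1 to HOMO4. The genotypes did not overlap. The log2 fold change of −0.64 ± 0.17 (edgeR adjusted p 0.0396) lay just past the fold threshold, and without WT3 it was −0.50. The call was lost when WT2, WT3 or any 1 HOMO library was left out. A share of 39.0% of its exon bases is overlapped on the opposite strand by Smim27. Reads of the pair can be told apart there only if both library preparation and counting kept the strand. The paper's methods describe no strand-specific step.

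**Figure D1:**
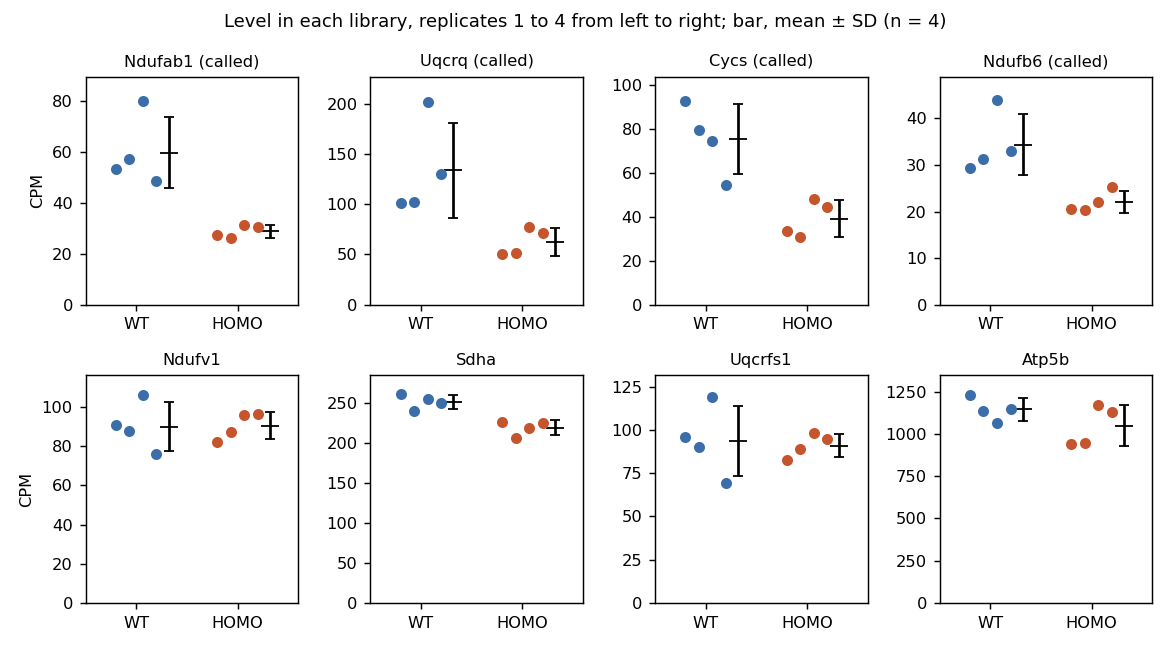
Level in CPM (vertical axis from 0) of the 4 called genes (upper row) and of a catalytic or core subunit of complexes I, II, III and V (lower row) in each library, with WT in blue and HOMO in orange; bars show the mean ± SD of 4 libraries. In the upper row all 4 HOMO libraries lie below all 4 WT libraries, while in the lower row the genotypes overlap for Ndufv1, Uqcrfs1 and Atp5b and are separate for Sdha.

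Over all 81 tested members, 72 had a fitted level lower in HOMO (88.9%, against 52.7% of all genes tested). The median log2 fold change was −0.29, against −0.04 over all genes tested. By complex the median was −0.30 for complex I, −0.24 for complex II, −0.43 for complex III, −0.33 for complex IV and −0.18 for complex V. The lean was smaller without 1 library, WT3. That library was the highest of the 4 WT libraries for 92.6% of the tested members, against 35.7% of all genes tested, and the highest of all 8 libraries for 73 of the 81. Without WT3 the median member log2 fold change was −0.07 (all genes −0.02), 53 of 81 were fitted lower (65.4%, against 51.7% of all genes), and Ndufab1, Uqcrq and Cycs remained called.

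The excess in WT3 differed among the subunits. The median difference between WT3 and the mean of the other WT libraries was 0.77 on the log2 scale for members and 0.02 for all genes tested that had an annotated length. It was 0.81 for the 29 accessory subunits of complex I, 0.88 for the 10 main-isoform subunits of complex IV and 1.06 for the 4 small membrane subunits of complex V, but 0.51 for the 7 core subunits of complex I, 0.34 for the redox subunits of complex III and 0.01 for Cycs. Members with under 1000 bases of annotated exon had a median excess of 0.91 (n = 18). Those between that length and 2000 bases had 0.86 (n = 31), and those with 2000 bases or more had 0.54 (n = 32). This length joins the exons of all annotated transcripts of a gene. It can exceed the principal transcript by far, as for Atp5l (6443 against 544 bases), so it is not the length of the message. Across the 81 members the excess and the log2 exon length had a Pearson r of −0.45 and a Spearman rho of −0.45, as a description over genes that share 1 library. Across all genes with a length (n = 14056) these were −0.18 and −0.30. WT3 also had the highest macrophage and smooth muscle marker sums (1957 and 2711 CPM) and a proliferation marker sum of 291 CPM (1624, 1405 and 178 CPM in WT1, WT2 and WT4), and the part of these in the excess was not tested.

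**Figure D2:**
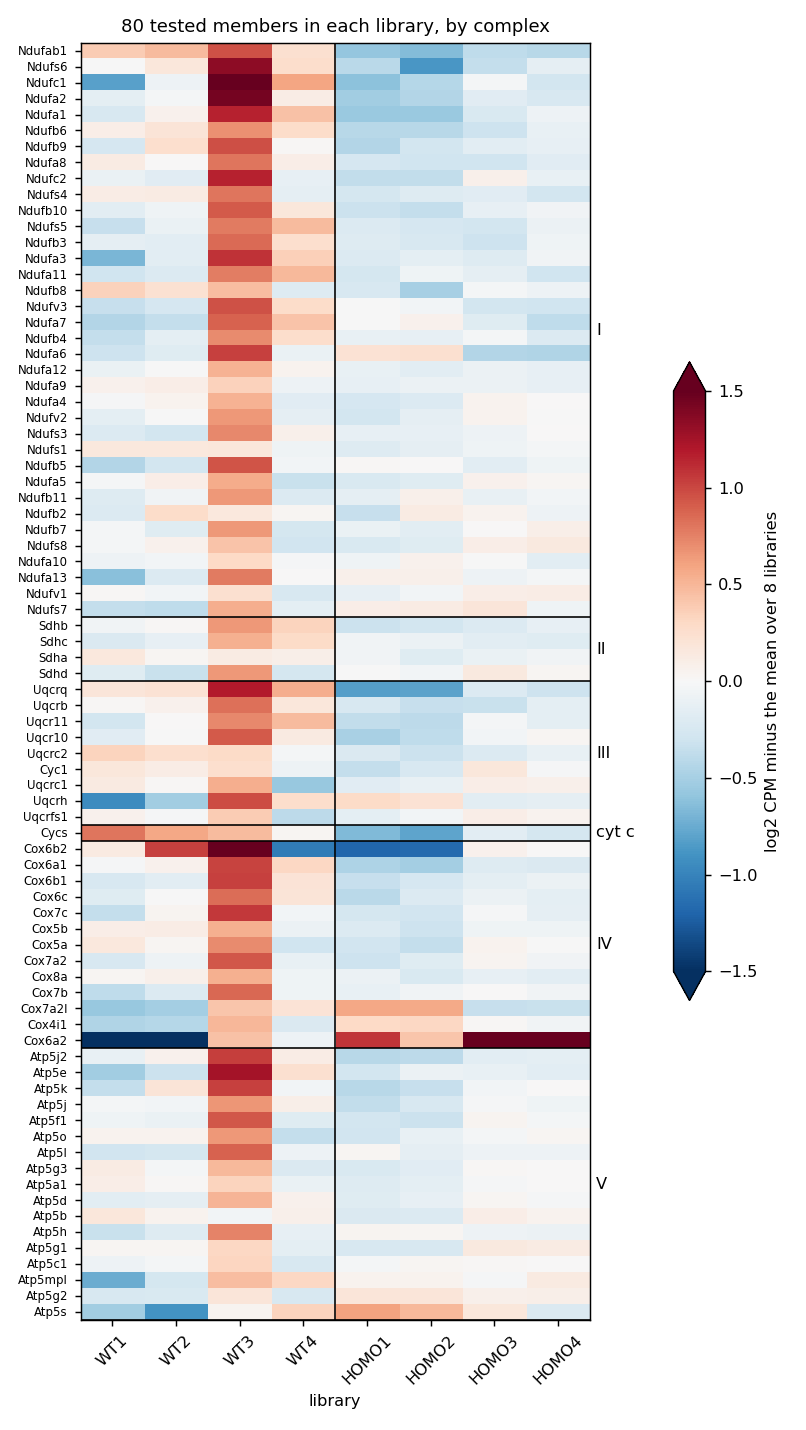
Level of 80 of the 81 tested members (rows, grouped by complex and ordered by log2 fold change) in each library (columns), as log2 CPM minus the mean of that gene over 8 libraries; red is above and blue below the mean, and values beyond 1.5 are drawn at the end of the scale. The WT3 column is red for almost every gene (median 0.69 above the gene mean), whereas medians of the other libraries lie between −0.21 and −0.01.

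Complex I takes electrons from NADH, and its 7 nuclear-encoded core subunits carry the flavin and the iron-sulfur clusters. None of the 7 was called. Their median log2 fold change was −0.14, with 5 of 7 fitted lower, and turned to 0.05 without WT3, with 2 of 7 fitted lower. Ndufv1, which binds NADH and the flavin, was counted at 90.5, 87.5, 106 and 75.7 CPM in WT1 to WT4 and at 82.2, 87.2, 95.9 and 96.6 CPM in HOMO1 to HOMO4. The HOMO values all lay inside the WT range, and the log2 fold change was 0.01 ± 0.14 with an interval of 2 SE from −0.26 to 0.28. Ndufs1, the largest iron-sulfur subunit, had 90.2 ± 6.76 CPM in WT and 78.0 ± 4.06 CPM in HOMO (SD, n = 4, log2 fold change −0.21 ± 0.11, edgeR adjusted p 0.227). Ndufs7, the subunit with the last cluster before the quinone, had the highest log2 fold change of the complex (0.12 ± 0.21, edgeR adjusted p 0.737). Without WT3 the Ndufs7 fold change was 0.37 (edgeR adjusted p 0.0498), below the fold threshold.

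All 29 accessory subunits of complex I were fitted lower in HOMO, with a median of −0.44, and 2 of them were called (Ndufab1 and Ndufb6). Without WT3, 23 of the 29 were fitted lower, with a median of −0.14. Besides the called pair, Ndufs6, Ndufa2, Ndufa8, Ndufa9 and Ndufs4 did not overlap between genotypes. Ndufs6, an accessory subunit needed late in assembly, was counted at 22.5, 25.4, 57.4 and 27.2 CPM in WT1 to WT4 and at 17.1, 12.4, 17.7 and 20.5 CPM in HOMO1 to HOMO4. All HOMO values lay below the WT values, and the fold change of −0.97 ± 0.32 was past the fold threshold. The edgeR adjusted p of 0.0772 was too high for a call, although DESeq2 called the gene. Over all members, 16 of 81 (19.8%) were lower in HOMO with no overlap, against 13.4% of all genes tested, and no member was higher with no overlap. In either direction, 27.3% of all genes tested did not overlap. Ndufa4, the complex IV protein with a complex I name, had 120 ± 26.6 CPM in WT and 103 ± 10.9 CPM in HOMO (−0.22 ± 0.17, edgeR adjusted p 0.419).

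Complex II, or succinate dehydrogenase, is the complex without a subunit from mitochondrial DNA and also acts in the citric acid cycle. Its flavoprotein gene Sdha was counted at 260.4, 239.7, 254.2 and 249.4 CPM in WT1 to WT4 and at 225.6, 206.2, 218.5 and 225.2 CPM in HOMO1 to HOMO4. The genotypes did not overlap, but the difference was small and not called (log2 fold change −0.20 ± 0.11, edgeR adjusted p 0.235). Sdhb, the iron-sulfur subunit, had the lowest fold change of the complex, also without overlap (45.03 ± 10.4 CPM in WT, 31.95 ± 1.95 CPM in HOMO, −0.49 ± 0.17, edgeR adjusted p 0.0916). The membrane anchor Sdhd had the highest, with 67.7 ± 24.4 and 68.1 ± 3.99 CPM (0.01 ± 0.22, edgeR adjusted p 0.985), and its sign changed when single libraries were left out.

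Complex III moves electrons from ubiquinol to cytochrome c, and all 9 of its tested members were fitted lower in HOMO, with Uqcrq called. Without WT3, 6 of the 9 were fitted lower, and the median went from −0.43 to −0.20. The redox subunits were close between genotypes. The Rieske protein Uqcrfs1 had 93.6 ± 20.5 CPM in WT and 91.0 ± 6.82 CPM in HOMO (−0.04 ± 0.17, edgeR adjusted p 0.895), the highest fold change of the complex, and cytochrome c1 (Cyc1) had 93.8 ± 8.94 and 80.6 ± 13.1 CPM (−0.22 ± 0.15, edgeR adjusted p 0.339). Of the core proteins, Uqcrc1 had a log2 fold change of −0.11 ± 0.22. Uqcrc2 was separate between genotypes, with 80.3, 75.4, 77.7 and 62.5 CPM in WT1 to WT4 and 54.8, 51.0, 55.0 and 59.0 CPM in HOMO1 to HOMO4 (−0.43 ± 0.12, edgeR adjusted p 0.0529). Without WT3 the Uqcrc2 fold change was −0.41 (edgeR adjusted p 0.0441), inside the fold threshold. The 5 small subunits had a median of −0.51, or −0.33 without WT3.

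Complex IV is cytochrome c oxidase, and in it 13 of 19 entries were tested and none was called. Among the 10 main-isoform subunits, 9 were fitted lower in HOMO (7 without WT3). Cox6a1, the non-muscle form of subunit VIa, was counted at 230.4, 244, 469 and 288 CPM in WT1 to WT4 and at 169, 163, 204 and 199 CPM in HOMO1 to HOMO4. The genotypes did not overlap, and the fold change of −0.74 ± 0.24 was past the fold threshold. Its adjusted p missed the threshold in edgeR (0.0695) but passed it in DESeq2. Cox4i1, the ubiquitous form of subunit IV, was the main-isoform gene fitted higher in HOMO, at 274, 279, 529.5 and 323 CPM in WT1 to WT4 and 462, 465, 379 and 359.8 CPM in HOMO1 to HOMO4. The HOMO values lay above all WT values but WT3 (0.24 ± 0.23, edgeR adjusted p 0.503), and without WT3 the fold change was 0.51 (adjusted p 0.0384), below the fold threshold. Cox5a, which pairs with subunit IV, had a log2 fold change of −0.33 ± 0.22.

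The supercomplex factor Cox7a2l split the HOMO libraries. It was counted at 128, 133, 254 and 218 CPM in WT1 to WT4 and at 284, 281, 149.6 and 150.4 CPM in HOMO1 to HOMO4. HOMO1 and HOMO2 were above every WT library, and HOMO3 and HOMO4 lay within the WT range, so the mean difference was small against the spread (0.24 ± 0.32, edgeR adjusted p 0.635).

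Several subunits of complex IV exist in alternative forms for muscle, testis or low oxygen. Some of these were near the floor of detection, but Cox6a2 reached 51 reads in a library and Cox6b2 reached 158. Cox7b2 and Cox8c, forms known from testis, had no read in any library, which allows up to 3 counts per library. Cox8b, a form of heart and brown fat, had at most 3 reads in a library. Cox4i2, a lung form linked to oxygen sensing, had 8 to 10 reads per WT library and 1 to 8 per HOMO library. Cox6c2 had at most 4 reads. Cox6a2, the muscle form of subunit VIa, was counted at 0.11, 0.04, 1.15 and 0.77 CPM in WT1 to WT4 and at 1.83, 1.12, 2.58 and 2.55 CPM in HOMO1 to HOMO4, the highest fold change of all members but not called (1.95 ± 0.80, edgeR adjusted p 0.132). Cox6b2, the testis form of subunit VIb, had the lowest (−1.53 ± 0.69, edgeR adjusted p 0.165), with WT values from 0.89 to 9.05 CPM and HOMO values from 0.80 to 2.02 CPM, which overlap. Both were called by limma-voom with sample weights.

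Shares of counts per kilobase of exon were computed for isoforms of the same subunit, and 5 shares were tested by a two-sided exact permutation test (70 assignments, smallest possible p 0.0286). The length used joins the exons of all annotated transcripts, so the size of a share depends on that choice. The share of Cox6a2 in Cox6a1 and Cox6a2 together was 0.05%, 0.018%, 0.25% and 0.28% in WT1 to WT4 and 1.11%, 0.70%, 1.29% and 1.31% in HOMO1 to HOMO4. The genotypes did not overlap, with an exact permutation p of 0.0286, the smallest the design allows, and an adjusted p of 0.0714. Cox7a1, the muscle form of subunit VIIa, took 1.54%, 1.18%, 2.06% and 1.81% of Cox7a1 and Cox7a2 in WT and 0.80%, 0.40%, 1.00% and 0.61% in HOMO. Its share was lower in every HOMO library, with the same p and adjusted p, on 4 to 24 reads per library. The share of Cox4i2 was 0.25% ± 0.06 in WT and 0.10% ± 0.09 in HOMO (exact permutation p 0.0857, adjusted 0.143), and that of Cox6b2 was 1.80% ± 1.04 and 0.94% ± 0.40 (exact permutation p 0.171, adjusted 0.214). No share passed the adjustment.

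**Figure D3:**
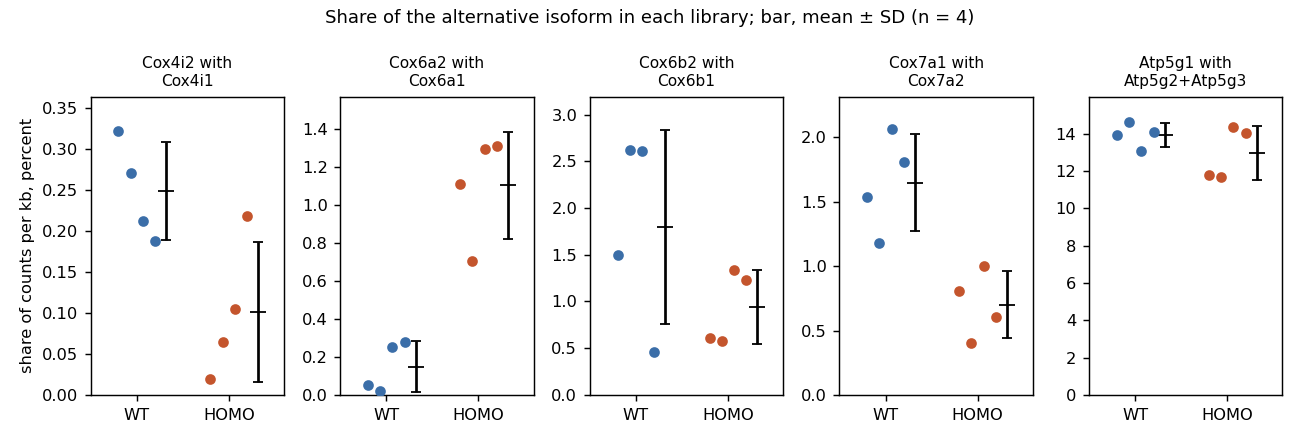
Share in percent (vertical axes from 0, each with its own scale) of an alternative isoform in the summed counts per kilobase of the isoforms named above each panel, for each library of WT (blue) and HOMO (orange); bars show the mean ± SD of 4 libraries. The genotypes are separate for Cox6a2 (higher in HOMO) and Cox7a1 (lower in HOMO) and overlap for Cox4i2, Cox6b2 and Atp5g1.

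Complex V, the ATP synthase, held the most abundant transcripts by CPM and had the median closest to 0, with none of 17 tested members called. Atp5b, the catalytic beta subunit, was counted at 1231, 1135, 1065 and 1148 CPM in WT1 to WT4 and at 943, 948, 1173 and 1132 CPM in HOMO1 to HOMO4. The genotypes overlapped through HOMO3 and HOMO4 (−0.13 ± 0.15, edgeR adjusted p 0.589), and WT3 was the lowest WT library for this gene. Atp5a1, the alpha subunit, had 580 ± 74.8 and 512 ± 33.5 CPM (−0.18 ± 0.14, edgeR adjusted p 0.418). The 2-SE intervals of 4 of the 5 F1 head genes and of all 3 c-ring genes lay inside the fold threshold. Over all 81 members this held for 27, and it held for 0 of the 13 in complex IV.

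The c-ring, whose turning drives ATP synthesis, is encoded by Atp5g1, Atp5g2 and Atp5g3, which give the same mature protein. Atp5g2 was counted at 74.7, 75.7, 100.8 and 74.9 CPM in WT1 to WT4 and at 100.7, 100.5, 93.15 and 94.4 CPM in HOMO1 to HOMO4. HOMO1 to HOMO4 were above every WT library but WT3 (0.25 ± 0.13, edgeR adjusted p 0.227). Without WT3 the Atp5g2 fold change was 0.37 (edgeR adjusted p 0.0208), below the fold threshold. In the fit of all libraries, the other c-ring genes leaned the other way. Atp5g1 (−0.11 ± 0.15) and Atp5g3 (−0.21 ± 0.17) were fitted slightly lower. The share of Atp5g1 in the 3 genes was 13.9% ± 0.65 in WT and 12.97% ± 1.42 in HOMO (SD, n = 4, exact permutation p 0.286, adjusted 0.286). Its size depends on the length used. The joined exons have 4912 bases for Atp5g1 and 1675 for Atp5g2, against 4715 and 731 in the principal transcripts. The lowest fold change in complex V was that of the small membrane subunit gene Atp5j2 (128 ± 52.9 and 83.4 ± 8.39 CPM, −0.62 ± 0.25, edgeR adjusted p 0.131). Its genotypes did not overlap, with a lowest WT value of 93.0 CPM and a highest HOMO value of 90.9 CPM. The highest fold change was that of Atp5s (5.91 ± 2.23 and 8.27 ± 2.03 CPM, 0.48 ± 0.32, edgeR adjusted p 0.332).

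**Figure D4:**
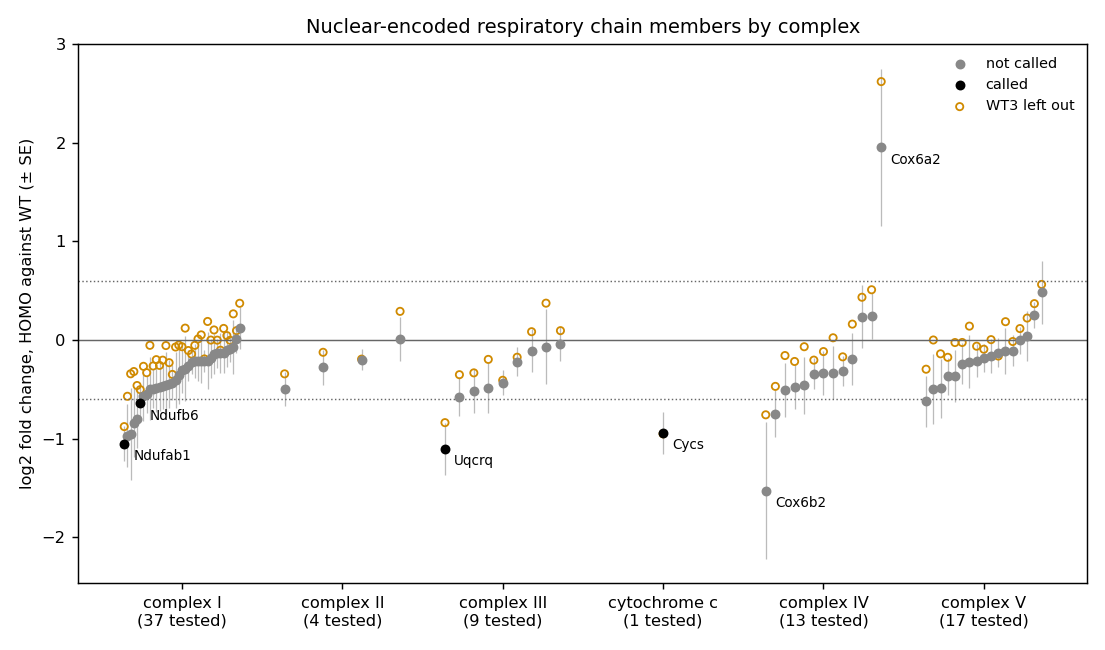
Log2 fold change of HOMO against WT for each tested member (vertical axis, ± SE; dotted lines at −0.6 and 0.6), ordered within each complex, with called genes in black and others in grey; open circles give the estimate with WT3 left out. Without WT3 most estimates move up, and the median goes from −0.29 to −0.07, while Cycs stays at −0.95.

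Per kilobase of exon, the highest mean levels were those of Cox8a (447 CPM per kb in WT, 359.6 in HOMO), Cox6a1 (438 and 262), Atp5b (270.2 and 248) and Cox4i1 (227 and 269). Ndufab1 stood low on this scale (8.67 and 4.19), over 6883 bases of annotated exon, of which its principal transcript has 3479.

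Some chromosomes were shifted as a whole, by over 0.3 in the median log2 fold change or in 1 library, and members there were read against that shift. On chromosome 8 the median gene was 0.37 higher in HOMO, and relative to it Cox4i1, Ndufa13 and Ndufb7 stood at −0.13, −0.44 and −0.50. On chromosome 18 the median was −0.31, and Atp5a1 and Ndufa2 stood at 0.13 and −0.52 relative to it. On chromosome 7, where WT3 was 0.36 above the mean of the other WT libraries, the 7 tested members had fold changes from −1.53 (Cox6b2) to 1.95 (Cox6a2), with Uqcrc2 at −0.14, Ndufa3 at −0.16, Ndufc2 at −0.20 and Cox6b1 at −0.22 after the chromosome median was taken off. Uqcrc2 itself had little of the WT3 shift, with WT3 0.10 above the mean of the other WT libraries. On chromosome 3, where WT3 was 0.37 above the mean of the others, Ndufb5, Ndufc1 and Atp5f1 stood at 0.02, −0.72 and −0.13 relative to a median of −0.23. WT4 was shifted by 0.65 on chromosome 12 and by 0.36 on chromosome 4. Relative to the chromosome 12 median of 0.24, Atp5mpl went from 0.04 to −0.20 and Atp5s from 0.48 to 0.25. Relative to the chromosome 4 median of −0.07, Ndufb6, Ndufs5 and Sdhb stood at −0.57, −0.40 and −0.42, and Uqcrh was at the median.

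The 13 subunits that mitochondrial DNA encodes were fitted higher in HOMO but for 1 gene. Summed, they stood at 10240, 11576, 6509 and 15001 CPM in WT1 to WT4 and at 17360, 20465, 17058 and 19082 CPM in HOMO1 to HOMO4. Every HOMO library was above every WT library, and WT3 was the lowest. Of the 13 genes, mt-Cytb (0.97 ± 0.26, edgeR adjusted p 0.0402), mt-Nd2 (1.07 ± 0.25, edgeR adjusted p 0.0279) and mt-Atp6 (0.81 ± 0.20, edgeR adjusted p 0.0355) were called higher in HOMO, against 5.94% of all genes tested. They numbered 6 without WT4, 3 without WT3 and 0 when any other library was left out. The median log2 fold change was 0.74 (0.51 without WT3), and mt-Nd3 was the gene fitted lower (−1.45 ± 0.76). The ratio of this sum to that of the 81 nuclear members was 1.36, 1.53, 0.57 and 1.92 in WT1 to WT4 and 2.46, 2.88, 2.25 and 2.56 in HOMO1 to HOMO4, also without overlap. The nuclear sums by themselves overlapped (7507 to 11503 CPM in WT, 7050 to 7584 CPM in HOMO). The median log2 fold change of the nuclear members was −0.07 without WT3.

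**Figure D5:**
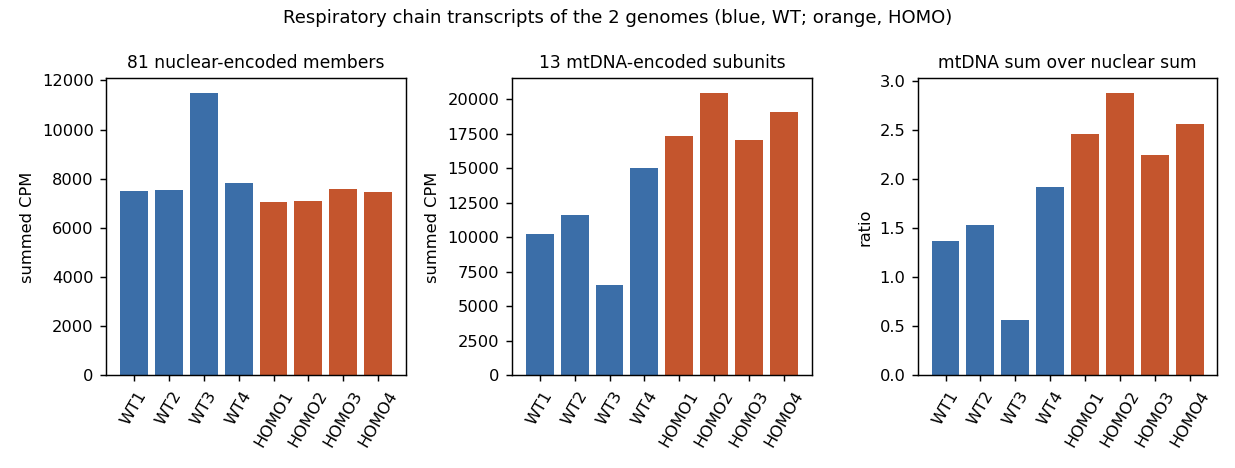
Summed level in CPM of the 81 tested nuclear-encoded members (left) and of the 13 subunits encoded by mitochondrial DNA (middle), and the ratio of the second to the first (right), for each library of WT (blue) and HOMO (orange), with axes from 0. The nuclear sum is 7050 to 7584 in HOMO and 7507 to 11503 in WT, the mitochondrial sum is higher in every HOMO library, and the ratio is lowest in WT3.

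Genes that build or serve the chain were read against the 12.1% of all genes called. Of the assembly factors, 3 of 16 for complex I were called and 0 of the 4, 6, 20 and 4 tested for complexes II, III, IV and V (0, 1, 4 and 1 at an unadjusted p under 0.05, and 1 DESeq2 call, for complex IV). Acad9, needed for complex I assembly, was higher in HOMO (26.3 ± 3.62 CPM in WT, 44.98 ± 2.84 CPM in HOMO, 0.78 ± 0.14, edgeR adjusted p 0.0118), as was Tmem186 (0.70 ± 0.19, edgeR adjusted p 0.0466). Ndufaf2, an assembly chaperone, was lower (18.1 ± 4.51 and 9.59 ± 1.68 CPM, −0.92 ± 0.22, edgeR adjusted p 0.0326). In the citric acid cycle 1 of 17 was called, Ogdh of the oxoglutarate dehydrogenase complex (−0.67 ± 0.18, edgeR adjusted p 0.0466), and among carriers, porins and import genes 1 of 17, the translocase subunit Timm17a (−0.64 ± 0.17, edgeR adjusted p 0.0396). With 1 library left out, the complex I assembly factors had 0 to 3 calls, with 1 or fewer without WT1, WT2, HOMO1, HOMO2 or HOMO3. Ogdh's list had 2 without WT3 and 0 without any other library, and Timm17a's list had 1 without WT1 or WT2 and 0 without any other.

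None of the 14 tested regulators of mitochondrial genes was called, and 4 had an unadjusted p under 0.05, although DESeq2 called 2. Ppargc1a, the coactivator PGC-1 alpha, was counted at 0.39, 0.47, 1.43 and 0.58 CPM in WT1 to WT4 and at 3.87, 4.20, 0.71 and 1.80 CPM in HOMO1 to HOMO4. HOMO3 lay within the WT range (1.89 ± 0.64, edgeR adjusted p 0.0822). Ppargc1b had 0.72 ± 0.39 and 2.04 ± 0.41 CPM without overlap (1.49 ± 0.43, edgeR adjusted p 0.0533), and Esrra, a nuclear receptor these coactivators work with, had 55.1 ± 7.55 and 39.1 ± 3.70 CPM (−0.50 ± 0.14, edgeR adjusted p 0.0519). The log2 fold changes of Nrf1 (0.19 ± 0.14, edgeR adjusted p 0.353), Gabpa (0.22 ± 0.16, edgeR adjusted p 0.367) and Tfam (0.11 ± 0.15, edgeR adjusted p 0.664) did not pass the test. Without WT3, 2 of the regulators were called.

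The mitochondrial ribosome, which translates the 13 mitochondrial messages, had 7 of 77 tested genes called, all lower in HOMO (6.18% of all genes tested were called lower), and a median of −0.35 (−0.21 without WT3). With 1 library left out it had 11 calls without WT4, 1 without HOMO1 or HOMO2, 3 without WT3 or HOMO4, 4 without WT2 or HOMO3 and 5 without WT1. The 5 with the largest change were Mrpl20 (−1.07 ± 0.23), Mrpl36 (−0.77 ± 0.19), Mrps23 (−0.72 ± 0.12), Mrps15 (−0.66 ± 0.13) and Mrpl51 (−0.66 ± 0.18). The cytosolic ribosome had 2 of 79 called, both higher, among them Rps7 (0.81 ± 0.20), against 5.94% of all genes called higher. Its median was 0.21, and 0.39 without WT3. It had 11 calls without WT3, 1 without WT4, HOMO3 or HOMO4, and 0 without WT1, WT2, HOMO1 or HOMO2. As in the respiratory chain, WT3 was above the other WT libraries for both ribosomes, with a median excess of 0.42 and 0.62 on the log2 scale.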

How the data were processed

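Total RNA of the pFBs had been poly-A selected and sequenced as paired ends. The authors ran fastp, then STAR against mm10, then featureCounts, and the deposited table holds these raw counts. Its label says that an outlier was taken out, and which library, if any, was removed is not known. Versions and annotation are not given in the sources used here. The members and gene lists were chosen with earlier results of these data known.

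Counts of 8 libraries (4 WT, 4 HOMO) were tested with the edgeR 4.0.16 quasi-likelihood test (R 4.3.3) after filterByExpr and TMM scaling, in a model of genotype alone over 14150 genes, with Benjamini-Hochberg adjustment. A gene was called where its adjusted p was below 0.05 and its log2 fold change exceeded 0.6 in size. CPM (counts scaled to libraries of 1000000) used TMM library sizes; log2 CPM had a prior count of 2. The scripts were tested on simulated data. Whole-library depth was 17236521 to 31987790 counts, and 3 counts were taken as the floor of a library; intervals cover 2 SE. The p-values measure the spread between these libraries, which may be technical. Positions and exon lengths came from GENCODE M21 (87 of 88 entries matched), promoters from RefSeq.

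Alternatives were DESeq2 1.42.0, limma-voom (limma 3.58.1) with sample weights, RLE and upper-quartile scaling, no filter, CPM above 1 in at least 4 libraries, a replicate block, exon-length offsets, each library left out, near-identical libraries summed, no fold threshold, and, for the median, subtraction of the chromosome median. Leaving out WT3 and WT4 together was chosen after seeing the data. Named genes were every called member, the highest and lowest fold change of each complex, core and c-ring genes, alternative isoforms, members on shifted chromosomes, and from each other list up to 5 called genes plus 6 regulators. Other genes were named for having no overlap between genotypes or for their level per kilobase, after their values were seen. Values of 2 genes that this rule names are not reported here.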

Additional observations from a re-analysis of the deposited data

Results flagged for a closer look

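Dixon's 95% criterion was applied within each genotype of 4 libraries, over 162 groups of member values. In 11 of these groups, all of WT, 1 library stood apart from the other 3. The criterion takes the libraries as independent, and both genotypes hold near-identical pairs, so the number expected by chance is not known. In 10 of the 11 the library was WT3, on the high side, and in 1 it was WT4, on the low side. Among named genes, WT3 had log2 CPM of 6.70 for Sdhd (other WT libraries 5.72 to 5.87) and 6.66 for Atp5g2 (6.22 to 6.24). WT4 had 6.33 for Ndufs1 (6.54 to 6.56).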

How the results depend on the processing

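The number of members called was 4 under RLE and upper-quartile scaling, with CPM above 1 and without the fold threshold, 3 with no filter, and 6 in DESeq2, limma-voom, with length offsets and without WT3 and WT4. It was 2 with the replicate block and 0 with near-identical libraries summed, where none of 16130 genes was called and 3 members had an unadjusted p under 0.05. Leaving out each library gave 1 to 4, Ndufab1 being called each time. Calls higher in HOMO were Cox6a2 and Atp5s in limma-voom, and these and Uqcrh without WT3 and WT4. All other member calls were lower in HOMO. By complex, complex I had 3 in DESeq2 and with length offsets, 1 with no filter, in limma-voom, with the block and without WT3 and WT4, 0 with libraries summed, and 1 to 2 with each library left out; complex III had 2 without WT3 and WT4, 0 with libraries summed and 0 to 1 with each left out; complex IV had 1 in DESeq2, with length offsets and without WT3 and WT4, and 2 in limma-voom; complex V had 1 in limma-voom and without WT3 and WT4. Genes called in the 11 pathway lists numbered 17 in the main test, 27 in DESeq2, 8 with no filter, 35 in limma-voom, 3 with the block, 40 without WT3 and WT4, 0 with libraries summed and 1 to 24 with each library left out. The median member log2 fold change ran from −0.36 to −0.07 with each library left out, was −0.06 in limma-voom and without WT3 and WT4, and kept its sign throughout. The same-numbered libraries did not deviate together (correlations −0.12 to 0.01), so the numbers were not taken as pairs.

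Signs changed for genes near 0. Uqcrfs1 was 0.0214 in limma-voom, 0.0836 with length offsets and −0.16 to 0.10 with each library left out. Sdhd was −0.0561 with libraries summed and −0.10 to 0.29, Ndufv1 −0.0647 to 0.0954, and Uqcrc1 −0.27 to 0.0849 with each left out. The shares of Cox6a2, Cox6b2 and Cox7a1 passed the adjusted threshold without WT4 (exact permutation test, adjusted p 0.0476). With each library left out the differences in share ran from 0.88 to 1.09, −1.31 to −0.586 and −1.10 to −0.81 percentage points. The causes were not tested.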
